A study of Mus musculus with 27 samples.

Results

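The genes described here carry hepatic glycolysis and the sensing of sugar: the sugar transporter Slc2a2, the regulatory protein Gckr, the fructose kinase Khk, the phosphofructokinase subunit Pfkl, the bifunctional regulatory enzymes Pfkfb1 and Pfkfb3, the pyruvate kinase Pklr and the transcription factor Mlxipl. The 8 genes were picked by name, and 7 of them were among the 18820 genes that had a value in the table. Each was read from its probe set of highest mean level. No probe set of the annotation used here named Pfkfb1 alone, so Pfkfb1 was not analysed here. The other 7 genes had 1 probe set each, numbered 10491171 for Slc2a2, 10520763 for Gckr, 10520612 for Khk, 10370376 for Pfkl, 10480035 for Pfkfb3, 10493382 for Pklr and 10526277 for Mlxipl, and all 7 passed the minimum on low intensity. Liver RNA came from 27 male C57BL/6J mice of 12 months of age that had been on their diet since 9 weeks of age: 7 mice on the control diet C (AIN-93W, ad libitum), 7 on the medium fat diet MF (AIN-93W-MF with 25E% of fat, ad libitum), 7 on the intermittent diet INT and 6 on caloric restriction CR. CR-fed mice got AIN-93W-CR once a day, in portions set at 30E% less energy than C-fed mice took in. In the study's own measurement their intake lay further below that of C-fed mice than this. INT-fed mice went each week from MF ad libitum to a portion set at 40E% less energy than C-fed mice took in, and back. They were killed in a week of MF. All mice were housed alone, and before death all were fasted for 4 h, given 0.5% carboxymethyl cellulose by gavage, and fasted for another 6 h. All mice were killed in afternoon hours that span the feeding time of CR, so CR-fed mice had their last portion the day before. The other mice had food ad libitum until the fast. The time since feeding and CR cannot be told apart here. The study asked how the alternating diet compares with the steady ones for the liver, and so every diet was compared here with every other one.

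Glucose and fructose enter the hepatocyte mainly through the facilitative transporter Slc2a2 (GLUT2). Gckr is a nuclear protein that restrains the first step of glucose use, and Khk phosphorylates fructose to a product that enters below the phosphofructokinase step. Phosphofructokinase, of which Pfkl is the liver subunit, is stimulated by fructose 2,6-bisphosphate, made and broken down by the Pfkfb enzymes, and Pklr makes pyruvate in the last step. Mlxipl (ChREBP) is a transcription factor that sugar metabolites switch on. With its partner Mlx it binds carbohydrate response elements, which are pairs of E-box-like motifs, in genes of glycolysis and of fatty acid synthesis.

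As background to the expression values, promoter windows of RefSeq (build GRCm38.p6, from 250 bases before to 50 bases after a start) were searched on both strands for the E-box CACGTG and for the carbohydrate response element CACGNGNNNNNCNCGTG. The genes of this set had 14 such windows, those of Pfkfb1 included. The response element stood in 15 of 32851 windows, or 0.0457%, and 1 of the 15 was a window of Pklr. It started 170 bases before the start of transcription, and is shown in capitals because this element in this gene is the textbook site of Mlxipl. The region is chr3:89136373-89136622 on the + strand.
Pklr: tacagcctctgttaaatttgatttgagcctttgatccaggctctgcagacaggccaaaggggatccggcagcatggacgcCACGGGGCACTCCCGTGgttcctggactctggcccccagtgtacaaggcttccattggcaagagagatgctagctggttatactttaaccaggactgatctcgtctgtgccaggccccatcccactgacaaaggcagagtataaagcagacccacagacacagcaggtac
The E-box stood in 2349 windows, or 7.15%, and in 3 of the 14 windows of this set, 1 each of Pfkfb3, Khk and Mlxipl. A response element can contain the E-box where its free letters allow it, which the match shown for Pklr does not. The E-boxes of Pfkfb3 (chr2:11502111-11502170, - strand, 53 bases before the start) and of Mlxipl itself (chr5:135089765-135089824, + strand, 98 bases before the start) are printed, since these are the gene that moved most in this set and the sugar sensor.
Pfkfb3: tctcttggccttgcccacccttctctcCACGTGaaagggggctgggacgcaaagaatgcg
Mlxipl: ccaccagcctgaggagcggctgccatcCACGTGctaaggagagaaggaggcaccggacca
These are matches of letters, and the arrays hold no measurement of binding.

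CR-fed mice stood apart from all other mice in 3 of the 7 genes. Gckr and Pklr were higher and Pfkfb3 was lower in each of the 6 CR-fed mice than in each of the 21 mice on C, MF or INT. The share of all tested genes in which CR-fed mice stood apart from all 21 at once was not computed, so this count cannot be read as particular to the set. Against C, limma called these 3 of 7 genes (Benjamini-Hochberg adjusted p under 0.05 over 13603 genes), while 17.5% of all tested genes were called in that comparison. Higher in CR were 2 of the 7, beside 8.46% of all genes, and lower was 1 of the 7, beside 9.05%. At an unadjusted p under 0.05 there were 5 of 7, beside 29.5% of all genes. Against MF the same 3 of 7 were called, beside 19.8% of all genes (2 higher beside 8.57%, 1 lower beside 11.2%, and 5 at an unadjusted p under 0.05 beside 31.7%). Between INT and CR 4 of 7 were called, these 3 and Pfkl, beside 15% of all genes. Of them 1 was higher in INT, beside 8.37%, and 3 were lower, beside 6.62%, and 5 of 7 had an unadjusted p under 0.05, beside 27.8%. In each of these comparisons the 3 genes were also without overlap between the diets, which held for 6.7% of all tested genes against C, 7.02% against MF and 6.43% between INT and CR. The 3 comparisons share the same 6 CR-fed mice. None of the 7 genes was called between INT and C, INT and MF, or MF and C, where 0 of the 13603 genes were called by limma and 922, 1479 and 464 genes, or 6.78%, 10.9% and 3.41%, had an unadjusted p under 0.05. Among the 7 genes that was the case once, for Pfkl between INT and MF (log2 difference -0.16, interval -0.32 to -0.01, adjusted p = 0.445). In these comparisons the diets overlapped in all 7 genes, and were without overlap in 0.257%, 0.103% and 0.0588% of all tested genes. Values below are log2 intensities, which compare 1 gene between mice and not 1 gene with another.

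**Figure D1:**
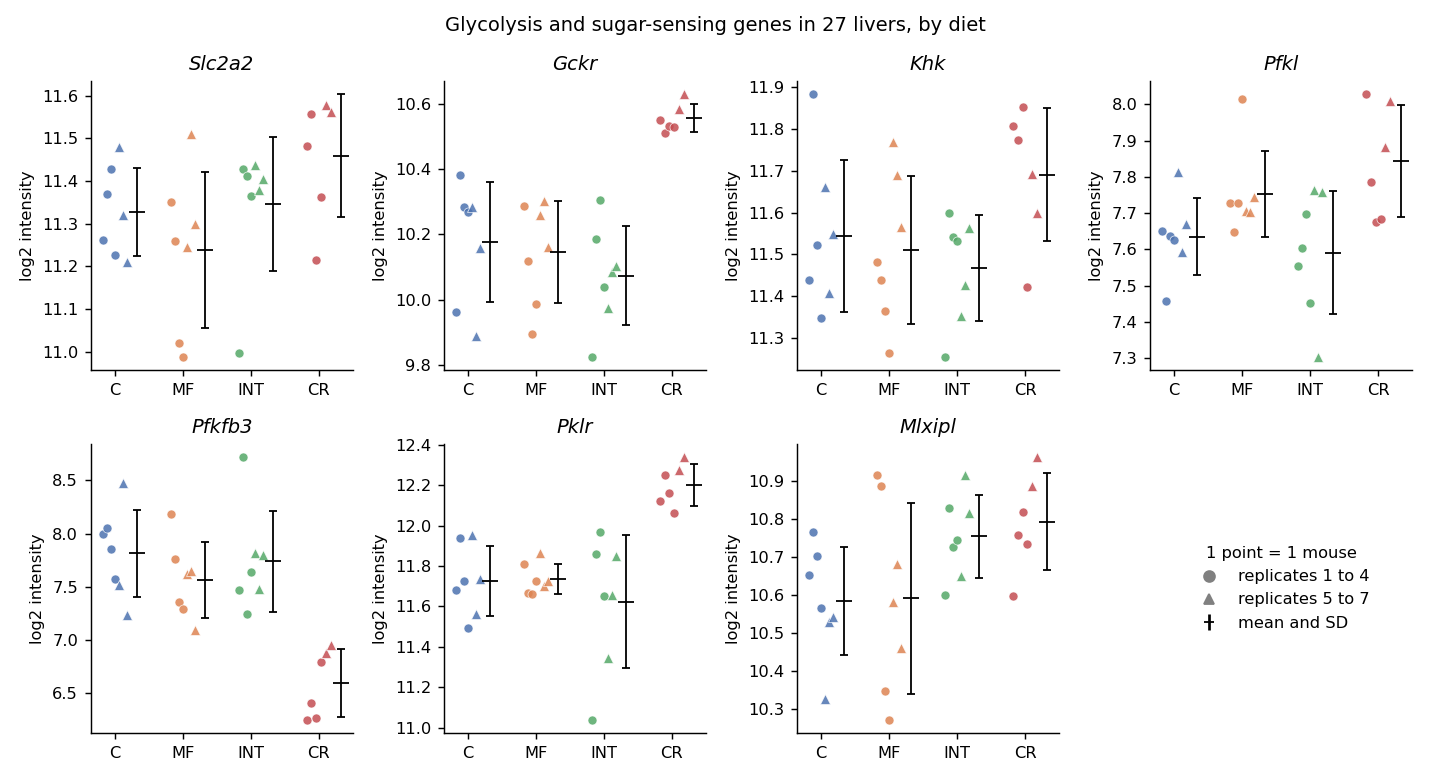
Log2 intensity (y axis, a separate scale for each gene) of the 7 genes in each of 27 mice, by diet (x axis). A point is a mouse, circles are replicates 1 to 4 and triangles replicates 5 to 7, and the bar is the mean with its SD. In Gckr and Pklr the 6 CR-fed mice lie above, and in Pfkfb3 below, the 21 other mice.

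Slc2a2, the transporter at the sinusoidal membrane, ran from 11.21 to 11.48 in C-fed mice (median 11.32), from 10.99 to 11.51 in MF (median 11.26), from 11.00 to 11.44 in INT (median 11.40) and from 11.21 to 11.58 in CR (median 11.52). All 4 ranges overlapped. The order of the means was MF, C, INT, CR, and no pair of diets differed by the test. The widest gap was between CR and MF at 0.22 on the log2 scale (95% confidence interval 0.05 to 0.39, adjusted p = 0.0607). This p fell to between 0.0200 and 0.0479 under 8 of the 42 other settings, among them leaving out MF replicate 6, CR replicate 3 or INT replicate 1. CR against C gave 0.13 (interval -0.04 to 0.30, adjusted p = 0.307).

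Gckr, the nuclear regulatory protein, ran from 9.89 to 10.38 in C-fed mice (median 10.27), from 9.90 to 10.30 in MF (median 10.16) and from 9.82 to 10.30 in INT (median 10.09). In CR-fed mice it ran from 10.51 to 10.63 (median 10.54), all above the highest mouse of the other diets, and with an SD of 0.04 beside 0.15 to 0.18 in the other groups. It was 1.30-fold higher in CR than in C, a log2 difference of 0.38 (SE 0.08, adjusted p = 0.00147). Against MF the difference was 0.41 (SE 0.08, adjusted p = 0.000608), and from CR to INT it fell by 0.48 (SE 0.08, adjusted p = 0.000131). C, MF and INT did not differ by the test, and the interval for INT against C was -0.26 to 0.06. The difference between CR and C had the same sign within both sets of arrays, 0.31 in replicates 1 to 4 (adjusted p = 0.0998) and 0.50 in replicates 5 to 7 (adjusted p = 0.0437). Between CR and MF it was 0.46 (adjusted p = 0.0113) and 0.36 (adjusted p = 0.144).

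Khk, which phosphorylates fructose, ran from 11.35 to 11.88 in C-fed mice (median 11.52), from 11.26 to 11.77 in MF (median 11.48), from 11.25 to 11.60 in INT (median 11.53) and from 11.42 to 11.85 in CR (median 11.73). CR-fed mice lay in the upper part of the range, but 15 of the 21 other mice were at or above the lowest CR-fed mouse. The order of the means was INT, MF, C, CR. No pair of diets passed the test. INT against CR gave -0.22 (interval -0.41 to -0.04, adjusted p = 0.0937), which passed without CR replicate 4 (-0.28, adjusted p = 0.0405), and CR against C gave 0.15 (interval -0.04 to 0.33, adjusted p = 0.287).

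Pfkl, the liver subunit of phosphofructokinase, ran from 7.46 to 7.81 in C-fed mice (median 7.64), from 7.65 to 8.01 in MF (median 7.73), from 7.30 to 7.76 in INT (median 7.60) and from 7.68 to 8.03 in CR (median 7.83). The ranges of all diets overlapped, in the order INT, C, MF, CR of the means. From CR to INT Pfkl fell by 0.25 (SE 0.08, adjusted p = 0.0261). This call was lost without CR replicate 1 (adjusted p = 0.0713), CR replicate 6 (0.0735), INT replicate 4 (0.0566) or INT replicate 6 (0.0690), within both sets of arrays (0.201 and 0.256), with only the 2 groups fitted (0.0623), and by the one-way test of the methods with Benjamini-Hochberg adjustment (0.138), with the sign kept. Against C the level in CR was higher by 0.21 (interval 0.05 to 0.37) and missed the threshold with an adjusted p of 0.0635, which other settings moved to as low as 0.0333. CR and MF differed by 0.09 (interval -0.07 to 0.25, adjusted p = 0.454).

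Pfkfb3, the inducible enzyme that makes fructose 2,6-bisphosphate, had the largest differences of the 7 genes. In CR-fed mice it measured 6.25, 6.41, 6.27, 6.79, 6.88 and 6.96 in replicates 1 to 6. It ran from 7.24 to 8.47 in C (median 7.86), from 7.10 to 8.18 in MF (median 7.62) and from 7.25 to 8.72 in INT (median 7.64). Every CR-fed mouse was below the lowest mouse of the other diets, which was an MF-fed mouse at 7.10. In CR it was 2.33-fold lower than in C, and on the log2 scale it fell by 1.22 (SE 0.21, adjusted p = 0.000108). Against MF it was 1.96-fold lower (-0.97, SE 0.21, adjusted p = 0.00111), and in INT it was 2.21-fold higher than in CR (1.15, SE 0.21, adjusted p = 0.000258). The means of C, MF and INT were not told apart, with an interval of -0.48 to 0.33 for INT against C and of -0.66 to 0.16 for MF against C. Within the arrays of replicates 1 to 4 the log2 difference between CR and C was -1.44 (adjusted p = 0.00265). Within those of replicates 5 to 7, with 2 CR-fed mice, it was -0.83 and missed the threshold (adjusted p = 0.173), as did the difference to MF there (-0.54, adjusted p = 0.433). The difference of INT to CR there was 0.78 (adjusted p = 0.226).

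Pklr, the pyruvate kinase of liver, ran from 12.06 to 12.34 in CR-fed mice (median 12.20). It ran from 11.49 to 11.95 in C (median 11.73), from 11.66 to 11.86 in MF (median 11.73) and from 11.04 to 11.97 in INT (median 11.65). The CR-fed mice were again all above the other 21, and the INT-fed mice were spread most widely, with an SD of 0.33 beside 0.07 in MF. Pklr was 1.39-fold higher in CR than in C (log2 difference 0.47, SE 0.11, adjusted p = 0.00227) and 1.38-fold higher than in MF (0.46, SE 0.11, adjusted p = 0.00240). From CR to INT it fell by 0.58 (SE 0.11, adjusted p = 0.000357). INT and C were not told apart (-0.10, interval -0.31 to 0.11). Within the 2 sets of arrays the difference between CR and C was 0.44 and 0.56, with adjusted p of 0.0824 and 0.0739, and that between CR and MF was 0.43 and 0.54, with adjusted p of 0.0660 and 0.0956. INT against CR passed in both sets, at -0.52 (adjusted p = 0.0463) and -0.69 (adjusted p = 0.0404).

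Mlxipl, the sugar-responsive transcription factor, was not called in any comparison. It ran from 10.33 to 10.77 in C-fed mice (median 10.57), from 10.27 to 10.92 in MF (median 10.58), from 10.60 to 10.92 in INT (median 10.74) and from 10.60 to 10.96 in CR (median 10.79). The mice of INT and CR lay in nearly the same range, at the upper end of that of C and MF. CR against C gave 0.21 (interval 0.02 to 0.40, adjusted p = 0.124), and CR against MF 0.20 (interval 0.01 to 0.39, adjusted p = 0.130), which passed without MF replicate 1 (0.26, adjusted p = 0.0439). Within the arrays of replicates 1 to 4 CR against C gave 0.05 (adjusted p = 0.850) and within those of replicates 5 to 7 it gave 0.46 (adjusted p = 0.0520), and INT against C gave 0.05 and 0.33 (adjusted p = 0.998 and 0.475). INT against CR gave -0.04 over all arrays (interval -0.23 to 0.15, adjusted p = 0.836), and INT against C 0.17 (interval -0.01 to 0.35, adjusted p = 0.742). The arrays measure the transcript level only, and not the nuclear entry or the activity of the protein.

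**Figure D2:**
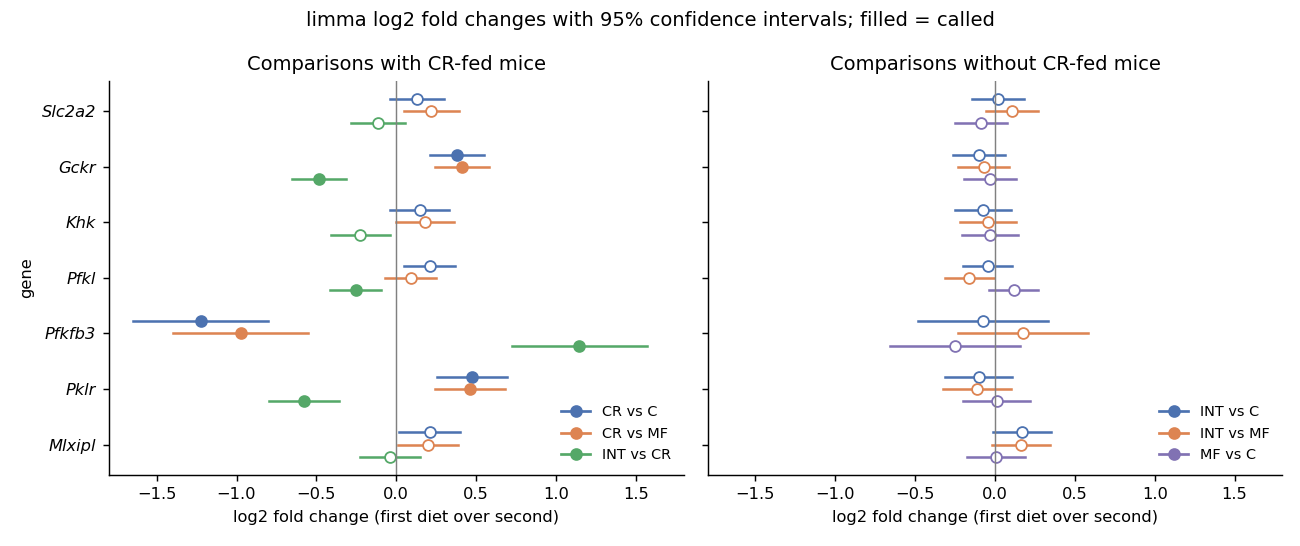
Log2 fold change (x axis, first diet over second) of the 7 genes (y axis) in the 6 comparisons, with 95% confidence intervals, and filled where called by limma. Filled points are found only in the comparisons with CR-fed mice, at Gckr, Pfkfb3 and Pklr in all 3 of them and at Pfkl between INT and CR.

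Cell type markers were set beside these values, because in whole liver fewer cells of a type and less RNA per cell cannot be told apart. Of 6 hepatocyte markers with a value all were high in all mice, and their mean level ran from 13.35 to 13.39 in CR-fed mice and from 13.00 to 13.30 in the others. Tat and Cps1 are the members of that list with the largest differences between CR and the other diets (mean 13.36 and 13.10 in CR, 12.87 and 12.82 in C). The other 4 did not follow them to that extent, with means in CR and C of 13.67 and 13.66 for Alb, 13.31 and 13.25 for Ttr, 13.33 and 13.34 for Apoa1, and 13.46 and 13.49 for Apoa2. The mean of 8 Kupffer cell and macrophage markers was 8.48 to 8.93 in CR, 8.13 to 8.77 in C, 7.95 to 8.63 in MF and 7.92 to 8.36 in INT. In that list 2 of 8 genes were called higher in CR than in C, beside 8.46% of all genes. Lower in INT than in CR were 6 of 8, beside 6.62% of all genes. The mean of 4 cholangiocyte markers was 5.37 to 5.69 in CR and 5.08 to 5.55 in the others. The erythroid gene Alas2 was 7.73 to 8.30 in CR-fed mice and 8.67 to 9.87 in the others, apart from them like Gckr, Pklr and Pfkfb3. The part of these markers in the differences of the 7 genes was not tested.

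The other genes of the pathway were read from 5 lists of 67 genes, 59 of them with a value and 57 past the minimum on low intensity. Against C, 18 of the 57 rose and 2 fell in CR-fed mice, and 37 were not called. This is 35.1% called beside 17.5% of all genes, and the median log2 difference was 0.13 beside 0.00 over all genes. Against MF 19 rose and 3 fell (38.6% called beside 19.8% of all genes, median 0.13). From CR to INT 21 fell and 4 rose (43.9% called beside 15%, median -0.19). None of the 57 was called between C, MF and INT, as was no other gene. At an unadjusted p under 0.05 there were 7, 9 and 1 in INT against C, INT against MF and MF against C. Of all genes 6.78%, 10.9% and 3.41% had such a p.

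Of 15 enzymes of glycolysis 4 rose and none fell in CR against C (26.7% called, beside 17.5% of all genes). These were Pfkp (0.97, SE 0.11), the platelet-type subunit of phosphofructokinase, Aldoc (0.47, SE 0.14), the brain-type aldolase, Pfkm (0.42, SE 0.12), the muscle-type subunit of phosphofructokinase, and Pgk1 (0.19, SE 0.06), which makes ATP in the lower part of the pathway. Pfkp ran from 6.04 to 6.46 in CR-fed mice and from 4.94 to 5.79 in all other mice. The same 4 rose against MF (26.7% called, beside 19.8% of all genes). From CR to INT Pfkp (-0.83) and Pgk1 (-0.29) fell, which is 13.3% called beside 15% of all genes. The median of the 15 was 0.11 in CR against C. Of 12 genes that control glycolysis and the entry of pyruvate, 5 rose and none fell in CR against C (41.7%, beside 17.5%). Among them were Dlat (0.74, SE 0.11) and Pdhb (0.39, SE 0.10), subunits of pyruvate dehydrogenase, its phosphatase Pdp1 (0.50, SE 0.09) and its kinase Pdk1 (0.40, SE 0.09), enzymes of opposite action. The lowest CR-fed mouse had a Dlat level of 9.27, as had the highest of the other mice. From CR to INT 5 of the 12 fell, Dlat by 0.85 and Pfkfb2, another Pfkfb enzyme, by 0.46, and 1 rose. This is 50% called, beside 15% of all genes.

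Genes of fructose use went both ways. Tkfc, the triokinase of the pathway that Khk opens, was higher in CR than in C (0.48, SE 0.08, adjusted p = 0.000124), whereas Slc2a5, the fructose transporter, was 2.08-fold lower (-1.06, SE 0.20, adjusted p = 0.000308) and Glyctk, the glycerate kinase, was lower by 0.28 on the log2 scale (SE 0.08). All 3 were called against MF as well. All 4 tested genes of the list were called between INT and CR, with Tkfc (-0.40) and Aldh1b1 (-0.88) lower in INT. Slc2a5 (0.89) and Glyctk (0.32) were higher in INT. These are 75% called against C and against MF, and 100% between INT and CR. Beside them stand 17.5%, 19.8% and 15% of all genes. Of 9 sugar and lactate transporters 1 was called in CR against C (11.1%, beside 17.5% of all genes). This was Slc2a4, the insulin-responsive transporter of muscle and fat. It was 3.52-fold higher (1.82, SE 0.19), with 6.16 to 7.42 in CR-fed mice and 4.44 to 5.74 in the other 21. Of 17 partners and known targets of Mlxipl 7 rose and none fell in CR against C, with a median of 0.33. This is 41.2% called, beside 17.5% of all genes. The largest rises were in the enzymes of fatty acid synthesis Acly (1.82), Fasn (1.30) and Acaca (1.11), and in the lipid gene Pnpla3 (1.22). The other 10 of the 17 were not called. Above 0 were Ppp1r3b (0.50, adjusted p = 0.0541), G6pc (0.33), Thrsp (0.25), Mlxip (0.23) and Scd1 (0.07). Below 0 were Mlx (-0.06), Txnip (-0.07), Fgf21 (-0.23), Klf10 (-0.24) and Gpd1 (-0.29). Against MF 8 of the 17 rose and 1 fell (52.9% called, beside 19.8% of all genes). From CR to INT 10 fell and 1 rose (64.7% called, beside 15%). Many of these 17 are also targets of other transcription factors.

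**Figure D3:**
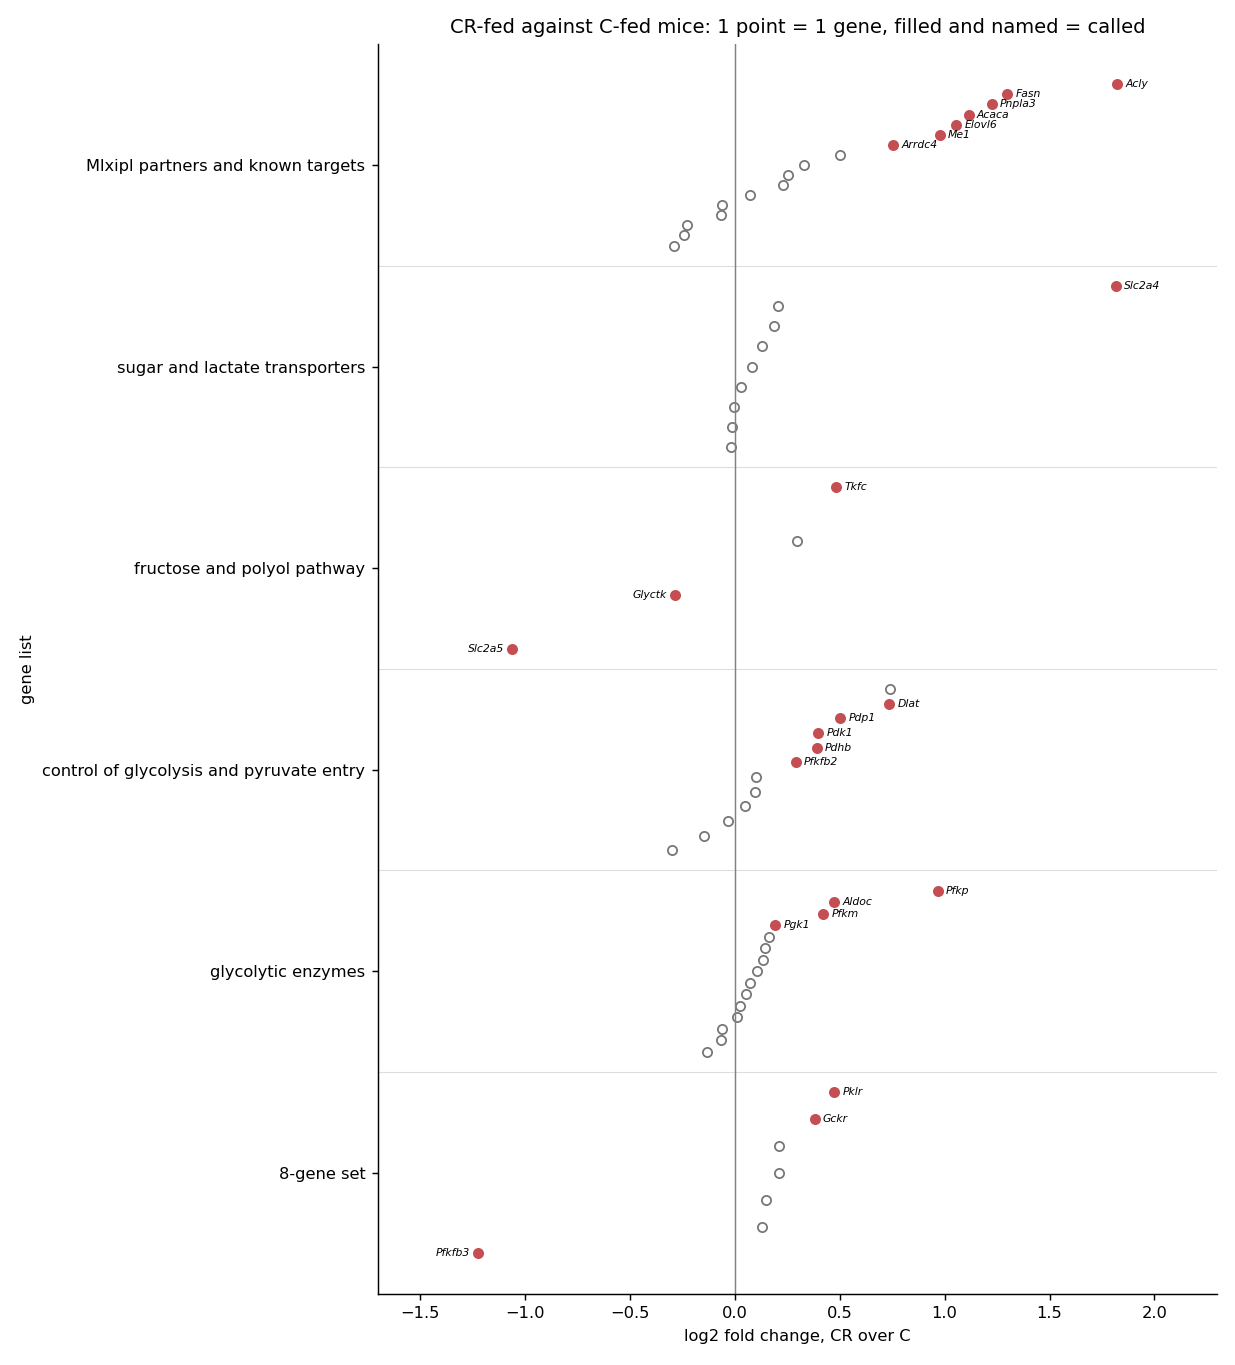
Log2 fold change of CR over C (x axis) of the 7 genes of the set and of 57 other pathway genes by list (y axis, 1 point is 1 gene, ordered by value within a list), with called genes filled and named. Called genes lie to the right of 0 except Pfkfb3, Slc2a5 and Glyctk.

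Some genes of the set also varied together between mice of 1 diet. The median r of the 21 pairs was 0.27, and the share of correlated pairs among all tested genes was not computed. With each diet's mean removed, 8 of the 21 pairs of the 7 genes were correlated over the 27 mice (permutation within diets, adjusted over the 21 pairs), 7 of them positively. Gckr and Pklr gave r = 0.66 (Spearman's rho 0.68, permutation p = 0.00035, adjusted p = 0.00367), and r = 0.69 without the 2 mice farthest from the median of Gckr. Within the 2 sets of arrays r was 0.69 and 0.75. Pklr and Khk gave r = 0.62 (rho 0.61, permutation p = 7e-05, adjusted p = 0.00147), with 0.62 without the 2 farthest mice and 0.69 and 0.83 within the sets of arrays. Gckr and Khk gave r = 0.62 (rho 0.63, permutation p = 0.00124, adjusted p = 0.00651), with 0.60 without the 2 farthest mice and 0.55 and 0.80 within the sets. Within replicates 1 to 4 the pair of Pklr and Khk alone of these 3 passed the threshold (adjusted p = 0.0662 for Gckr and Pklr, 0.0726 for Gckr and Khk), and within replicates 5 to 7 none did (adjusted p = 0.309 each).

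Slc2a2 was tied to Gckr with r = 0.63 (rho 0.60, permutation p = 0.0007, adjusted p = 0.0049), with 0.65 without the 2 farthest mice and 0.71 and 0.34 within the sets of arrays. Its tie to Pklr (r = 0.54, rho 0.54, permutation p = 0.00283, adjusted p = 0.0119) rested on few mice, since r was 0.33 without the 2 farthest and 0.31 (adjusted p = 0.12) without INT replicate 1, and 0.70 and 0.04 within the sets. Its tie to Khk (r = 0.49, rho 0.42, permutation p = 0.0145, adjusted p = 0.038) kept r = 0.51 without the 2 farthest mice, was 0.53 and 0.19 within the sets, and missed the threshold when any of 10 single mice was left out (r between 0.41 and 0.49 then).

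Pfkfb3 went with Mlxipl (r = 0.53, rho 0.58, permutation p = 0.00416, adjusted p = 0.0146), with r = 0.60 without the 2 farthest mice and 0.61 and 0.20 within the sets of arrays. Pfkl went against Mlxipl (r = -0.45, rho -0.39, permutation p = 0.0136, adjusted p = 0.038), with r = -0.24 without the 2 farthest mice, so that this relation rests on those, and -0.57 and -0.63 within the sets (adjusted p = 0.0662 and 0.834). It missed the threshold by Spearman's rho (adjusted p = 0.102) and when any of 8 single mice was left out, with the weakest value without MF replicate 4 (r = -0.32, adjusted p = 0.148). Gckr and Pfkfb3, which differed in opposite directions between CR and the other diets, were not correlated within diets (r = 0.06, rho 0.09, permutation p = 0.804, adjusted p = 0.889). Neither were Pklr and Pfkfb3 (r = 0.14, rho 0.09, permutation p = 0.587, adjusted p = 0.772).

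**Figure D4:**
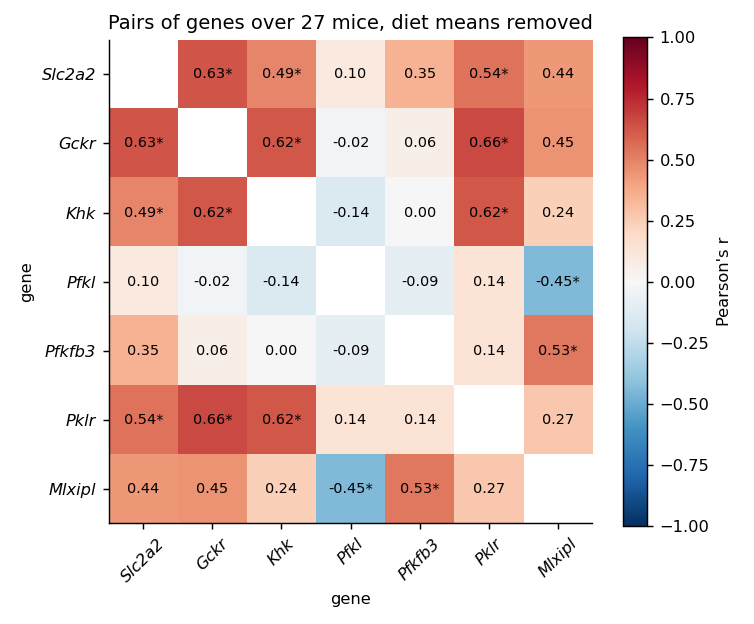
Pearson's r over 27 mice, with diet means removed, for each pair of the 7 genes (both axes), and an asterisk where the adjusted p is under 0.05. The block of Slc2a2, Gckr, Khk and Pklr runs from 0.49 to 0.66, and the 1 marked negative value is that of Pfkl with Mlxipl (-0.45).

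The genes most alike to each of the 7 were taken by Pearson's r over the 27 mice among the 13603 tested genes, as a description that holds the diet differences as well. For Gckr they were Pdk1 (0.87), Pklr (0.86) and Gm11437 (0.86), and for Pklr the lipogenic enzymes Acaca (0.88) and Fasn (0.87) and the triokinase Tkfc (0.86). With diet means removed the value of Pklr and Tkfc was 0.76. Khk was most like Tkfc (0.76, and 0.81 with diet means removed), Mycl (0.73) and Pdk1 (0.72). Slc2a2 was most like Gpd1l (0.88), Acp6 (0.86) and Ngef (0.86), and these 3 kept values of 0.84 to 0.85 with diet means removed. Pfkfb3 was most like Zfp445 (0.90) and the complement components C9 (0.87) and C6 (0.87), and Mlxipl was most like the clotting factor F7 (0.83), Rbm33 (0.83) and Scnn1a (0.82). Pfkl had the weakest likeness after Khk, with Cemip2 (0.78), Abcc5 (0.75) and Esyt2 (0.74).

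C- and MF-fed mice differ widely among themselves in liver fat, and the lipid droplet gene Cidec was used as a readout of it on the same arrays. In the 14 mice of these diets Cidec ran from 6.19 to 10.78 on the log2 scale with no gap wider than 0.97, while in CR-fed mice it ran from 5.26 to 6.06. Of the 7 genes 3 were correlated with Cidec over the 14 mice (permutation, adjusted over the 7), and all 3 were lower where Cidec was higher. Unlike in the pairs above, diet means were not removed and mice were permuted across C and MF. A difference between these diets can thus enter r (mean Cidec 8.57 in C and 8.98 in MF). The share of all genes correlated with Cidec in these mice was not computed, so the count cannot be read as particular to this set. Mlxipl gave r = -0.75 (rho -0.77, permutation p = 0.00197, adjusted p = 0.0136), -0.74 without the 2 mice farthest from the median of Cidec, and -0.90 and -0.69 within the sets of 8 and 6 arrays. Pfkfb3 gave r = -0.72 (rho -0.76, permutation p = 0.00388, adjusted p = 0.0136), with -0.82 without the 2 farthest mice and -0.92 and -0.57 within the sets. Slc2a2 gave r = -0.68 (rho -0.65, permutation p = 0.00658, adjusted p = 0.0154), with -0.58 without the 2 farthest mice and -0.97 and -0.46 within the sets, and missed the threshold without MF replicate 4 (adjusted p = 0.0617) or MF replicate 6 (adjusted p = 0.0563). Within the 6 arrays of replicates 5 to 7 alone none of the 3 passed (adjusted p = 0.469 each).

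Pfkl went the other way, with r = 0.56 (rho 0.62, permutation p = 0.0287, adjusted p = 0.0503), 0.78 without the 2 farthest mice, and 0.64 and 0.54 within the sets, just short of the threshold. It passed by Spearman's rho (permutation adjusted p = 0.0382), after cyclic loess (0.029) and with array set means removed (0.0495). It also passed without C replicate 4 (0.0497), MF replicate 1 (0.031) or MF replicate 6 (0.0155). Gckr (r = -0.36, rho -0.39, permutation p = 0.204, adjusted p = 0.285) and Khk (r = -0.27, rho -0.23, permutation p = 0.345, adjusted p = 0.402) did not pass. Neither did Pklr (r = 0.09, rho 0.12, permutation p = 0.762, adjusted p = 0.762). In these 3 genes r had opposite signs in the 2 sets of arrays, -0.81 and 0.24, -0.66 and 0.23, and -0.46 and 0.69. Within replicates 1 to 4 alone Gckr passed (permutation adjusted p = 0.0353). Without the 2 farthest mice r was -0.19 for Gckr, -0.21 for Khk and 0.16 for Pklr. Pfkfb3 was thus low where Cidec was high among C- and MF-fed mice, and also low in CR-fed mice, in which Cidec was lowest.

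Some marker lists moved with Cidec in the same 14 mice, in a check of 11 lists that was added after the data had been seen. Diet means were not removed here either. The mean of the hepatocyte list gave r = -0.68 (rho -0.70, permutation p = 0.0064, adjusted over the 11 lists p = 0.0187), with -0.79 without the 2 farthest mice and -0.81 and -0.55 within the sets of arrays. The stellate list gave r = 0.87 (rho 0.90, permutation p = 0.0001, adjusted p = 0.0011), with 0.90 without the 2 farthest mice and 0.89 and 0.85 within the sets. The endothelial list gave r = 0.74 (rho 0.78, permutation p = 0.00213, adjusted p = 0.0117), with 0.74 without the 2 farthest mice and 0.81 and 0.80 within the sets. Lyve1 had the widest range of that list over all mice (7.43 to 9.77, beside 8.53 to 9.57 for Stab2). The single genes of a list were not tested against Cidec. Alas2 gave r = -0.69 (rho -0.72, permutation p = 0.00681, adjusted p = 0.0187), with -0.66 without the 2 farthest mice and -0.78 and -0.63 within the sets. The other lists did not pass (adjusted p of 0.487 to 0.963). Their r was 0.30 for Kupffer cells and macrophages, 0.30 for cholangiocytes, 0.31 for neutrophils and 0.23 for lymphocytes. It was 0.06 for adipocytes, 0.01 for pancreas and 0.19 for muscle. Over all mice Tat ran from 12.13 to 13.45 and Cps1 from 12.16 to 13.16, while the other hepatocyte markers stayed between 13.18 and 13.74. The part of these markers in the relation of Mlxipl, Pfkfb3 and Slc2a2 to Cidec was not tested.

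**Figure D5:**
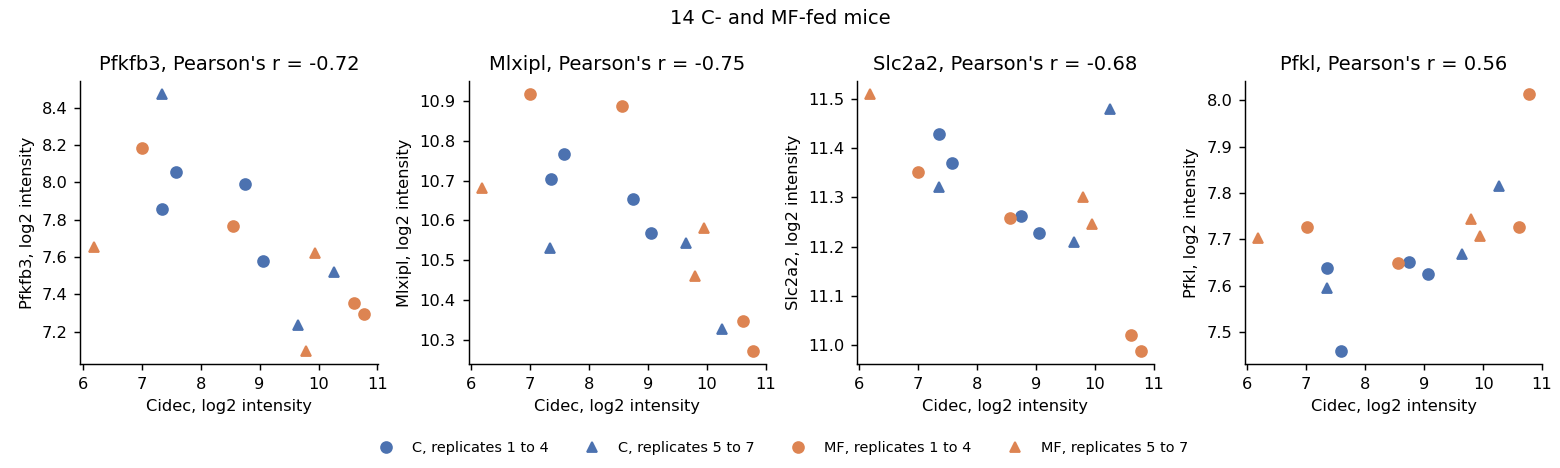
Log2 intensity of Pfkfb3, Mlxipl, Slc2a2 and Pfkl (y axes) against that of Cidec (x axis) in the 14 C- and MF-fed mice, with circles for replicates 1 to 4 and triangles for replicates 5 to 7. The first 3 genes fall with rising Cidec (r = -0.72, -0.75 and -0.68), and Pfkl has r = 0.56.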

How the data were processed

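Liver RNA (100 ng per mouse, integrity number above 8.0) was hybridised to Affymetrix Mouse Gene 1.1 ST arrays by the authors. They normalised by robust multiarray average and deposited log2 intensities of 35556 probe sets on 27 arrays. Diets and replicate numbers come from the sample labels. The platform annotation gave the gene of a probe set, with symbols from RefSeq of GRCm38.p6 (18790 of 18820 genes matched). Those naming several genes (1881) or none (12457) were left out, so 8 of the 67 pathway genes had no value. The methods speak of probe sets built per Entrez gene, whereas the table holds those of the array's maker, so the probe set of highest mean was taken where a gene had several.

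Genes measured above an intensity of 20 on 5 or more arrays (13603) entered limma 3.58.1 in R 4.3.3, fitted over all 27 arrays with diet as the single factor and Benjamini-Hochberg adjustment at 0.05. Arrays have no read depth, and the number of mice limits the precision. Array medians lay between 5.21 and 5.27, and pairs of arrays correlated at 0.982 to 0.992. Arrays of replicates 1 to 4 (16 arrays, interquartile range 3.63 on average) and of replicates 5 to 7 (11 arrays, 3.72) were also fitted apart, and what sets them apart is not given in the sources used here. Correlations used 100000 2-sided permutations in Python 3.11.15 (numpy 2.4.6, pandas 2.3.3, scipy 1.17.1, figures with matplotlib 3.10.9). The code was tested on simulated data. The plan counted 8 genes and 28 pairs, of which 7 and 21 could be had without Pfkfb1.

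The genes, lists and tests were chosen with earlier results of these data known. Named are the genes of the set, up to 4 called genes of largest change per list and comparison, Cidec, the 3 genes most alike to each, and promoter sequences of at most 3 genes. For the partners and targets of Mlxipl the uncalled genes of CR against C are named as well. Values named beside a range over all mice, and markers that moved, were chosen after they were seen. The other settings were the intensity minimum (none, over 20 on all arrays, mean over 50), centring of each array on its median, array weights, cyclic loess, a trended and robust variance model, the mean of a gene's probe sets, only the 2 groups compared, blocks by array set or replicate, each mouse left out, and a one-way test over the diets followed by Tukey's post-test, used in the methods for other measurements.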

Additional observations from a re-analysis of the deposited data

Results flagged for a closer look

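Of 28 groups (7 genes in 4 diets) 3 held a mouse that stood far from the rest of its diet by Dixon's criterion, which chance alone meets in about 1 in 20 groups. MF replicate 4 had the highest Pfkl of its diet at 8.01, with the next MF-fed mouse at 7.74. INT replicate 2 had the highest Pfkfb3 of all mice at 8.72, with the next INT-fed mouse at 7.82. INT replicate 1 had the lowest Slc2a2 of its diet at 11.00, with the next INT-fed mouse at 11.36.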

How the results depend on the processing

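Of 1764 log2 fold changes of the 7 genes under other settings 1728 kept their side of the threshold, 17 lost and 19 gained a call, and no called value changed sign. Uncalled values changed sign 28 times, 1 of them in a comparison with CR, which was Khk against MF within replicates 5 to 7 (-0.03, beside 0.18 over all arrays). Pathway genes and Cidec gave 14334 of 14538 kept, with 122 lost and 82 gained, and 349 sign changes, none of a called value. With single mice left out, 3 to 4 genes of the set were called in CR against C and in CR against MF, 3 to 5 between INT and CR, and 0 in the other comparisons, and 18 to 22, 21 to 24, 21 to 26 and 0 pathway genes. Within replicates 1 to 4 alone the counts that changed most were 1 gene of the set (CR against C) and 15 pathway genes (INT against CR). There Gckr and Pfkfb3 stayed called between CR and MF, and Gckr, Pklr and Pfkfb3 between INT and CR. Within replicates 5 to 7 alone they were 1, 0 and 2 genes of the set (CR against C, CR against MF, INT against CR). With them went 11 pathway genes in CR against MF and 12 in INT against CR. Each of these fits had fewer mice, and fewer of all genes were called. Within replicates 1 to 4, 537 genes were higher and 689 lower in CR than in C (1151 and 1231 over all arrays). In INT against CR 627 were higher and 411 lower (1138 and 901 over all arrays). Within replicates 5 to 7, 296 were higher and 201 lower in CR than in C. Against MF it was 176 and 155 (1166 and 1524 over all arrays), and in INT against CR 148 and 199. The one-way test of the methods, with Tukey's post-test and unadjusted over genes, called 2 pathway genes between INT and C and 3 between INT and MF. Of all 13603 genes it called 141 higher and 82 lower in INT than in C. Against MF it called 156 higher and 200 lower in INT. Of the 21 pairs 5 passed with array set means removed, 4 within replicates 1 to 4, 0 within replicates 5 to 7, and 6 to 10 with single mice left out. For Cidec 0 genes passed within replicates 5 to 7, and 2 to 4 with single mice left out. Without removal of diet means 2 pairs reversed, Gckr with Pfkfb3 (r = -0.58 over 27 mice, permutation adjusted p = 0.00532) and Pklr with Pfkfb3 (r = -0.53, permutation adjusted p = 0.0115), as differences between diets then enter r. The labels do not say whether mice of the same replicate number belong together. Of 39 same-numbered pairs from different diets 17 correlated above 0.1 (median 0.08). For other numbers of the same array set it was 32 of 102 (median 0.0075), and across array sets 19 of 132 (median -0.04). With array set means removed 15 of the 39 same-numbered pairs were above 0.1 (median 0.05). With a replicate block 3, 3 and 4 genes of the set were called as without it, and 1205 genes rose and 1205 fell in CR against C.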
